A study of Sus scrofa with 6 samples.

Results

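The 97 genes described here had lower RNA levels in heat-stressed than in control porcine oocytes, and lower levels again when nicotinamide mononucleotide (NMN), a precursor of the coenzyme NAD+, was added during the heat. They were chosen by their values. The mean FPKM (fragments per kilobase of transcript, scaled to the mapped fragments of a sample) over the 6 samples was at least 1, every control sample lay above every heat-stressed sample, every heat-stressed sample lay above every NMN-supplemented sample, and the log2 ratio of the control to the NMN mean, each with 1 FPKM added, was at least 1. Gene names with any of 18 starts were left out, which removed 48 of 145 genes. The starts are LOC and family prefixes, including ribosomal proteins, proteasome subunits, zinc fingers, solute carriers, aurora kinases (AURK) and polo-like kinases (PLK). Any other gene whose name begins with the same letters, such as AURKAIP1, was barred as well. The 97 genes were drawn from 4713 with a mean of at least 1 FPKM, called tested genes below, of 29861 genes in the table. The direction of the members, their lack of overlap between groups and the size of their difference between NMN and control are therefore fixed by the choice, and are given as a description without a test.

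RNA was sequenced from oocytes of abattoir ovaries, with 2 samples each from control oocytes, oocytes under heat stress and oocytes under heat stress with NMN. The methods describe 24 h of culture at a raised temperature from the germinal vesicle (GV) stage, with NMN present during that time, and 100 oocytes per group. The labels give the stage as GV and the time as 24 hours, whereas the methods give metaphase II for the sequenced oocytes, so the stage is uncertain. The NMN concentration of these samples, the breed and age of the animals, and whether the samples of a group came from separate collections are not given in the sources used here, and no sample with NMN but without heat is among the 6. P-values quoted for other genes thus measure the spread between these samples only, which may be technical.

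A fully grown oocyte makes almost no new RNA. It lives on maternal transcripts that were stored during growth, and during meiotic maturation many of these are deadenylated and destroyed while others gain a longer poly(A) tail and are translated. A short U-rich sequence near the end of the 3′ UTR, the cytoplasmic polyadenylation element, marks transcripts for that second course. Heat stress in most cells brings on heat shock chaperones, and damage to proteins in the endoplasmic reticulum (ER) or a lack of amino acids brings on the integrated stress response, in which the transcription factor ATF4 turns on genes such as CHAC1.

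The samples were oocytes by their markers. GDF9, an oocyte growth factor, was listed at 353 to 777 FPKM and BMP15, its partner, at 1606 to 1940 FPKM. Of 35 cumulus and granulosa cell markers in the table, 31 were under 1 FPKM in every sample and 5 were at 0 in all, and their summed level was 18.6 to 22.3 FPKM in control, 14.3 to 17.2 FPKM with heat stress and 12.8 to 17.8 FPKM with NMN. The highest of them in every sample was INHBA, an activin subunit, at 16.4 and 13.2 FPKM in control, 10.2 and 6.44 under heat stress and 4.35 and 10.2 FPKM with NMN, and no gene of that list was a member. PTX3, TNFAIP6, CYP19A1, FSHR and STAR were at most 0.455 FPKM. All 14 blood and immune cell markers and all 15 of endothelium and stroma were under 1 FPKM in every sample. The 13 mitochondrially encoded genes held 61.7 to 66.4% of all FPKM in control, 62.4 to 71.6% with heat stress and 74.2 to 74.7% with NMN. The 62.4% was in heat stress replicate 1, where 1 other gene, LOC100513953, lowered that share. It made up 37.0% of the FPKM outside mitochondrially encoded genes there and 0% in every other sample. The part of the mitochondrial shift in the members' levels was not tested beyond the rescaled values in the closing section. In pooled oocytes, fewer cells with a transcript and less of it per cell cannot be told apart. How mRNA was captured is not given. If it was by the poly(A) tail, a shorter tail and less RNA cannot be told apart either.

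Both steps of the choice were met by few tested genes. Every control sample lay above every heat-stressed sample in 1092 of 4713 tested genes (23.2%), and every heat-stressed above every NMN-supplemented sample in 831 (17.6%). Both held for 334 genes (7.09%), and the mirrored order, rising at both steps, held for 742 genes (15.7%). When a log2 difference of at least 1 was also asked for and no name was left out, 145 genes (3.08%) were lower stepwise and 31 (0.658%) were higher stepwise. Small stepwise rises were thus the more common, and large stepwise differences were mostly downward. The 97 members were 2.06% of the tested genes.

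The members' median log2 difference was -0.63 from control to heat stress, with a range of -1.56 to -0.16, against a median of 0.049 over the tested genes. From heat stress to NMN the members' median was -0.63 (-1.76 to -0.13), against 0.078 over the tested genes. Together these made a median of -1.27 between NMN and control, against 0.11. On the FPKM scale itself the control mean exceeded the NMN mean between 2.004-fold and 9.23-fold, with a median of 3.24-fold, more than the log2 values give because these include the added 1 FPKM. At an unadjusted p under 0.05 (limma on log2(FPKM + 1), all 6 samples in one fit), 476 tested genes (10.1%) were lower and 598 (12.7%) higher with heat stress than in control, 304 (6.45%) were lower and 337 (7.15%) higher with NMN than with heat stress, and 740 (15.7%) were lower and 1208 (25.6%) higher with NMN than in control. Of the members 65, 73 and 97 were among the lower genes of these comparisons, which follows in part from how they were chosen. At an adjusted p under 0.05 neither single step gave a gene in either direction, and NMN against control gave 432 lower (9.17%) and 583 higher genes (12.4%). The median of the members' mean FPKM was 7.36 in control, 4.403 under heat stress and 2.12 with NMN.

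**Figure D1:**
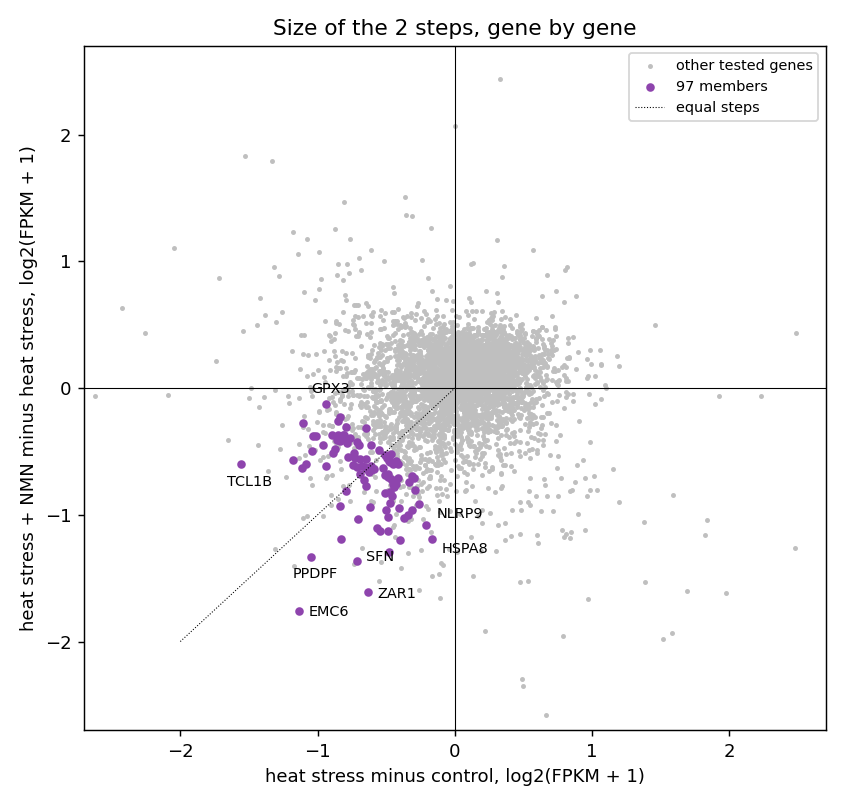
Each point is a tested gene, with its log2(FPKM + 1) difference between heat-stressed and control oocytes on the x axis and between NMN-supplemented and heat-stressed oocytes on the y axis (group means of 2 samples), the 97 members in purple and 4 genes beyond the axes not drawn. The members fill the lower left corner by construction, from GPX3, where most of the difference came with heat, to HSPA8, where most of it came with NMN, on either side of the dotted line of equal steps.

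The step from control to heat stress made up over 50% of the log2 difference in 41 members and under 50% in 56, with a median of 47.8%. These counts turned with the scaling: with the same sum outside mitochondrially encoded genes they were 85 and 12, the members' median heat step was -0.93 and the NMN step -0.40, while with GC and length trends removed they were 33 and 64, with steps of -0.43 and -0.61. In heat stress replicate 1 the sum outside mitochondrially encoded genes was 37.0% LOC100513953, against 0% in every other sample. No other setting put the heat step above 50% in most members. The counts were 48 and 49 with quantile normalization, and 38 and 59 with the same median FPKM or a pseudocount of 0.1 FPKM. Which step was the larger over the members is not settled by these values. With FPKM as deposited the heat step made up over 75% in 4 members, which were GPX3, C2H19orf43, LAD1 and ARRDC2, and under 25% in HSPA8, NLRP9, GSG2 and RSL1D1. GPX3, a secreted glutathione peroxidase, was at 10.2 and 14.2 FPKM in control, 5.79 and 5.85 under heat stress and 5.65 and 4.87 FPKM with NMN, so that 88.1% of its difference lay in the heat step and its heat and NMN samples nearly touched. HSPA8, the constitutive Hsc70 chaperone, was at 40.1 and 46.3 FPKM in control, 37.7 and 39.0 under heat stress and 15.04 and 17.6 FPKM with NMN, so that 12.2% lay in the heat step. NLRP9, an oocyte-expressed NLR family gene, was likewise near its control level with heat alone. Its levels were 14.1 FPKM in both control samples, 11.04 and 13.2 under heat stress and 4.32 and 6.16 FPKM with NMN.

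The distances between groups were small for some members. In 12 of the 97 the lowest control sample was less than 10% above the highest heat-stressed sample, and in 10 the lowest heat-stressed sample was less than 10% above the highest NMN-supplemented sample. In 71 members every sample was at 1 FPKM or more, while 23 had an NMN mean under 1 FPKM and none was at 0 in an NMN sample. Control samples were not alike in these genes. Control replicate 2 was above replicate 1 in 78 of 97 members (80.4%) against 47.5% of tested genes, whereas the replicate 2 sample was the higher in 46.4% of members with heat stress (50.01% of tested genes) and in 55.7% with NMN (43.3%). The members' median deviation from their own 6-sample mean was 0.54 and 0.75 log2 in control, 0.029 and 0.011 with heat stress, and -0.67 and -0.61 with NMN. Both control samples thus stood above all others, and the replicate 2 sample the farther.

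**Figure D2:**
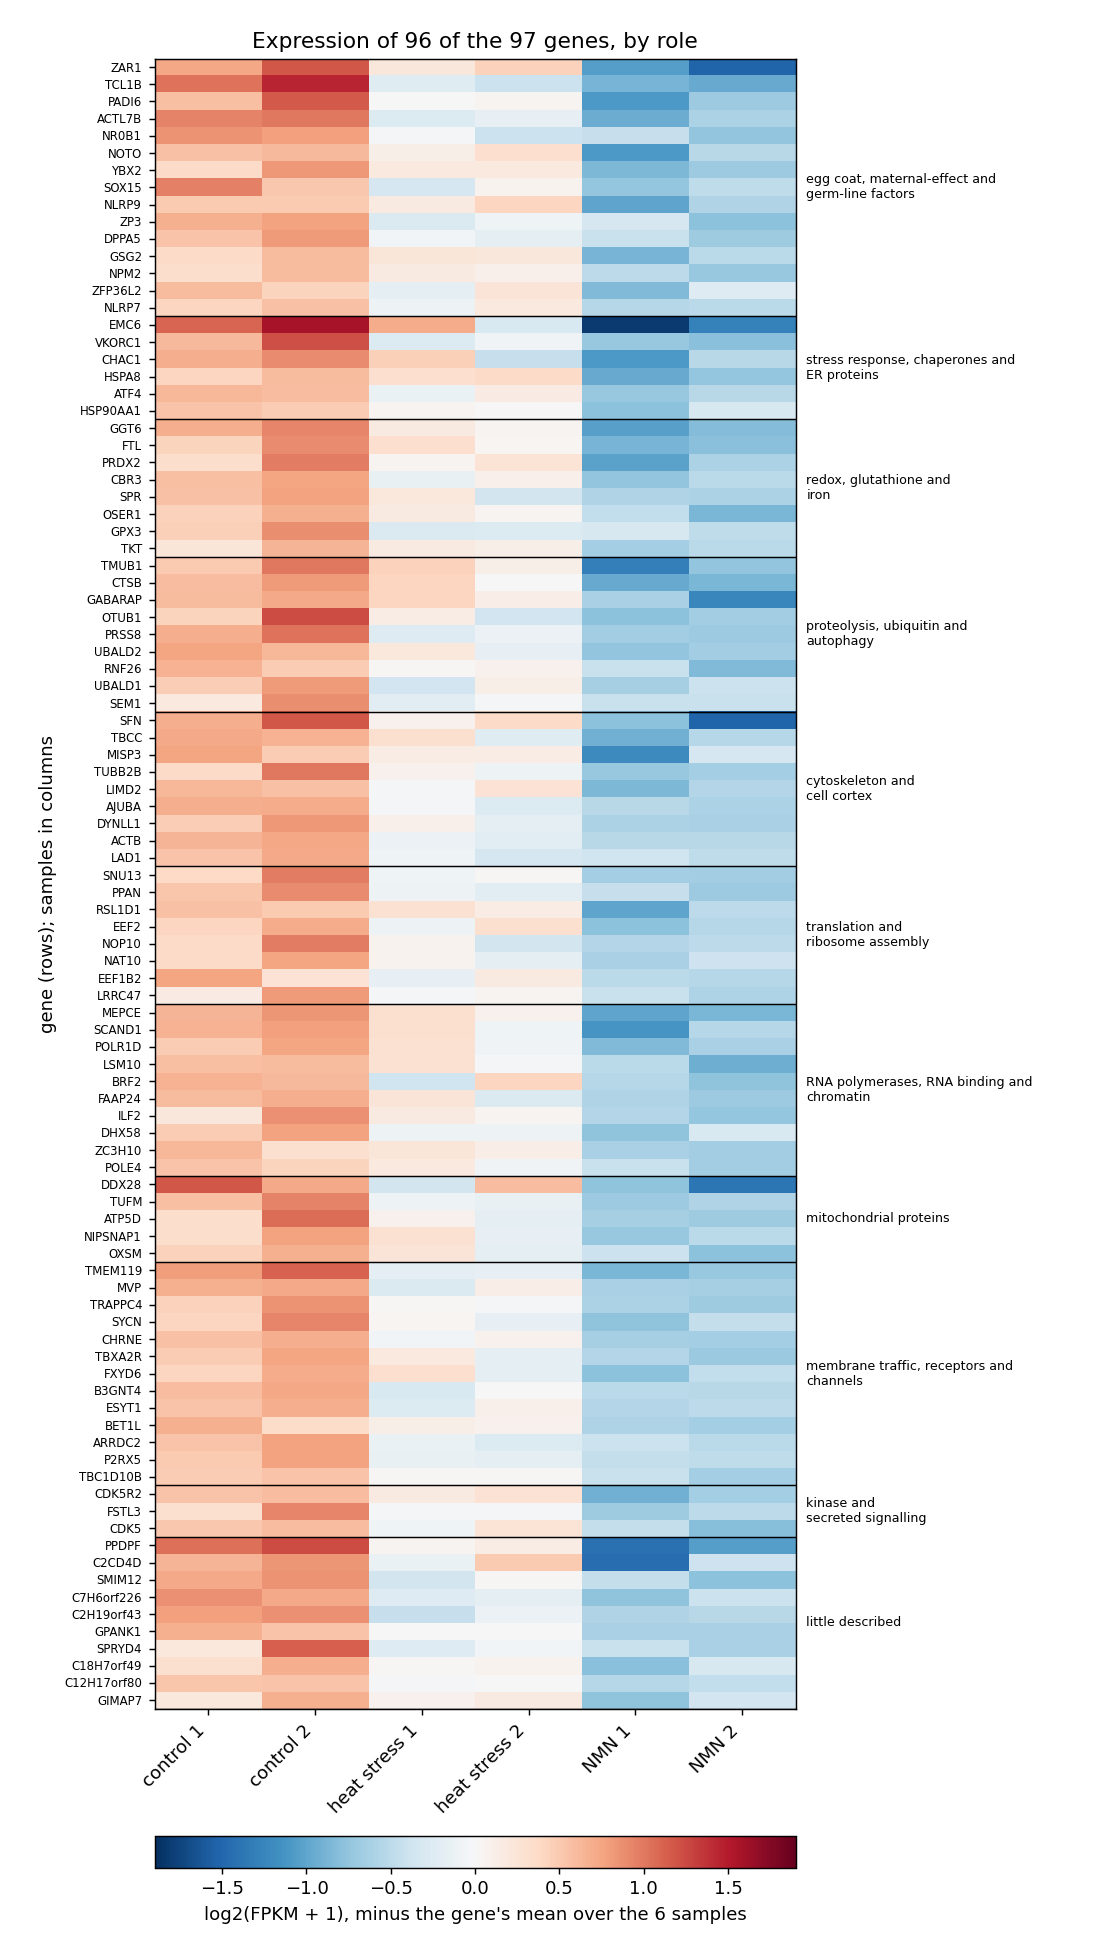
Rows are 96 of the 97 members grouped by known role and columns the 6 samples, coloured by log2(FPKM + 1) minus the gene's own mean over the samples (red above, blue below). Control columns are red and NMN columns blue in every row, as the choice requires, and control replicate 2 is the darker control column in 77 rows.

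The members are described by role, with roles assigned from general knowledge after the values were seen. Genes of the egg coat, maternal-effect genes and germ-line regulators made up 15 of the members. ZAR1, an oocyte protein that binds and stores maternal mRNA (chr8:38386520-38391618, plus strand, Sscrofa11.1), had the largest difference among them. It was at 17.3 and 23.8 FPKM in control, 11.8 and 13.8 under heat stress and 4.30 and 2.84 FPKM with NMN, a log2 difference of -0.63 ± 0.23 (SE of the model) at the first step and -1.61 ± 0.23 at the second. No 2 groups overlapped, with the larger gap between heat stress and NMN. TCL1B, of the TCL1 family of AKT co-activators, showed the opposite balance, with 19.1 and 25.8 FPKM in control, 7.43 and 6.39 under heat stress and 4.35 and 4.07 FPKM with NMN. Its step with heat was -1.56 ± 0.17, the largest heat step of the 97.

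PADI6, a component of the cytoplasmic lattices that store ribosomes and maternal proteins in the egg, was at 7.23 and 11.5 FPKM in control, 4.62 and 4.74 under heat stress and 1.60 and 2.43 FPKM with NMN. ZP3, a zona pellucida glycoprotein that takes part in sperm binding, was at 24.7 and 26.3, then 12.3 and 14.2, then 11.9 and 8.38 FPKM, with the higher NMN sample close to the lower heat-stressed one. DPPA5, an RNA-binding protein of pluripotent and germ cells, was the most abundant of this group at 158 and 190 FPKM in control, 105 and 95.3 under heat stress and 80.4 and 67.3 FPKM with NMN. NPM2, which decondenses sperm chromatin after fertilisation, was near the lower limit of the choice, with a mean of 1.02 FPKM and values of 1.42 and 1.92, then 1.16 and 1.06, then 0.361 and 0.170 FPKM. YBX2, a germ-cell Y-box protein that masks mRNA, differed by -1.36 ± 0.18 log2 between NMN and control, and ZFP36L2, a zinc finger protein that speeds the decay of AU-rich mRNAs, by -1.05 ± 0.25. The group also held NLRP7 and NLRP9, the transcription factors SOX15, NOTO and NR0B1, the actin-like gene ACTL7B and the histone kinase haspin (GSG2). NOTO is annotated as the notochord homeobox gene, so its place in this group is loose. The NLRP genes are a family of close relatives and DPPA5 has processed copies in many mammals, so that their values depend on how shared fragments were counted.

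These genes can be set beside the whole list of oocyte genes. Of 23 tested, 5 were members. Of the other 18, 12 lay below 0 between NMN and control, with a median of -0.25 against 0.11 over all tested genes, and 4 had an adjusted p under 0.05 in the lower direction and 1 in the higher (limma on log2(FPKM + 1), Benjamini-Hochberg over 4713 genes). The 432 lower calls over all tested genes (9.17%) include all 97 members, from which nothing is read since the choice used that difference. The 4 called lower were GDF9 (-0.94 ± 0.15, adjusted p = 0.022), ASTL, the ovastacin protease of cortical granules (-1.04 ± 0.21, adjusted p = 0.029), ZP4 (-1.02 ± 0.21, adjusted p = 0.030) and TLE6, a protein of the subcortical maternal complex (-0.77 ± 0.13, adjusted p = 0.024). WEE2, the oocyte kinase that holds CDK1 in check, rose by 0.78 ± 0.12 (adjusted p = 0.022). ZP2 was at 10.6 and 11.3 FPKM in control and 9.71 and 8.83 FPKM in NMN-supplemented oocytes, and BMP15 at 1606 and 1646, then 1820 and 1751 FPKM, so the list did not move as 1 block. Without control replicate 2 or without NMN replicate 1 no gene had an adjusted p under 0.05 in the lower direction, and without NMN replicate 2 there was 1, but these fits leave 1 sample in a group, which is assumed to vary like the other groups. The log2 differences stayed between -1.22 and -0.68 for these 4 genes when any sample was left out.

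Of 33 tested genes for the storage and decay of maternal mRNA, 3 were members (ZAR1, YBX2 and ZFP36L2) and no other was called lower. The median of the other 30 was 0.24, against 0.11 over all tested genes, and 5 genes were called higher between NMN and control, which were CNOT6, CNOT6L and CNOT7 of the CCR4-NOT deadenylase, PAN3 of the PAN2-PAN3 deadenylase and DCP2, the decapping enzyme. Their log2 differences ran from 0.56 (PAN3) to 0.79 (DCP2). Over all tested genes 12.4% were called higher and 9.17% lower in this comparison. These shares stand beside the calls of every list here and below, and no list was tested against them.

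Stress response, chaperone and ER genes made up 7 members. EMC6, a subunit of the ER complex that inserts membrane proteins (chr12:49759153-49760069, plus strand), had the largest log2 difference of the 97. It was at 33.9 and 47.1 FPKM in control, 25.4 and 12.2 under heat stress and 3.60 and 5.63 FPKM with NMN, a difference of -2.89 ± 0.38 between NMN and control. The heat-stressed samples were far apart, although both lay between the other groups. CHAC1, which breaks down glutathione, was at 11.5 and 13.4 FPKM in control, 9.53 and 4.71 under heat stress and 2.64 and 4.37 FPKM with NMN. ATF4 was at 21.8 and 21.1, then 12.5 and 15.5, then 7.99 and 9.20 FPKM, with replicates closer to each other than to any other group. HSP90AA1, the inducible cytosolic Hsp90, was at 60.0 and 57.5, then 42.6 and 41.3, then 23.5 and 33.1 FPKM. The NMN samples of HSP90AA1 were spread more widely than its other pairs. HSP90AA1 lies on an unplaced scaffold, and HSPA8 has many processed copies, so that shared fragments may be split. VKORC1, the ER vitamin K epoxide reductase, was at 4.77 and 7.84, then 2.16 and 2.59, then 1.29 and 1.17 FPKM.

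Among 14 tested genes of the integrated stress response, 2 were members (ATF4 and CHAC1). Of the other 12, 7 lay below 0 and the median was -0.24 between NMN and control. Among these, ATF5 (-0.72 ± 0.18, adjusted p = 0.042) and ASNS, asparagine synthetase (-0.80 ± 0.13, adjusted p = 0.024), were called lower, and no gene of the list was called higher. From control to heat stress alone the median of the 12 was -0.22, and 2 had an unadjusted p under 0.05 in the lower direction and none in the higher, against 10.1% of tested genes at that threshold. The heat shock list had 16 tested genes, 2 of them members, and the other 14 had a median of -0.056. HSPA5, the ER chaperone BiP, was called lower (-0.80 ± 0.13, adjusted p = 0.024), and none was called higher. Between heat stress and control, 3 of these 14 had an unadjusted p under 0.05 in the lower direction and none in the higher.

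Promoters of 3 of these genes are shown because the elements that ATF4 and heat shock factors are known for were searched there. Each runs from 250 bases before to 50 bases after the start of the annotated RefSeq transcript, 5′ to 3′ on the gene's strand in Sscrofa11.1. Capitals in CHAC1 (chr1:130363283-130363582, minus strand) mark the match to TGATGNAA, a form of the ATF4 composite element, which reads here on the other strand and begins 165 bases before the start. Capitals in HSPA8 (chr9:49986711-49987010, minus strand) mark 2 matches to GAANNTTC, the inverted repeat of a heat shock element, 222 and 50 bases before the start, and capitals in ATF4 (chr5:8744987-8745286, minus strand) mark 1 such match at 76 and a TATAAA box at 39 bases before the start. The ATF4 window lies inside the annotated gene (chr5:8742964-8745752), because the transcript used starts downstream of the gene's annotated 5′ end.

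CHAC1: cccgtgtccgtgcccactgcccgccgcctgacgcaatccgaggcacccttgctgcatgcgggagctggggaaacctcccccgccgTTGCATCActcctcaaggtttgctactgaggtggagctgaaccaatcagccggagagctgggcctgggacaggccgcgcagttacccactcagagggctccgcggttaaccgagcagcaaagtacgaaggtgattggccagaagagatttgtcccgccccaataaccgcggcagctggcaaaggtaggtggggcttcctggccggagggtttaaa
HSPA8: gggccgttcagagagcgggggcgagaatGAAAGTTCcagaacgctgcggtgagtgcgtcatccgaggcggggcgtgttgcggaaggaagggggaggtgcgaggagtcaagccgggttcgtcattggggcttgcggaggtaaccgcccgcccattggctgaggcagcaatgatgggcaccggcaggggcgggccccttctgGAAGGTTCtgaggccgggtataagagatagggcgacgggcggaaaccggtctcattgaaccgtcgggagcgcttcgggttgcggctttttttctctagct
ATF4: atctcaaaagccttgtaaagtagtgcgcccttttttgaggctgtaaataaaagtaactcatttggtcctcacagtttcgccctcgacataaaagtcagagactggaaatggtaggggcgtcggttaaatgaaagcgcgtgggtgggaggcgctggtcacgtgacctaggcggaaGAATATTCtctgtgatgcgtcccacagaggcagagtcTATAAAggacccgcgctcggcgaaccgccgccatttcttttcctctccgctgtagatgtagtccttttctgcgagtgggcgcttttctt

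Neither of these motifs was common among the members. CHAC1 alone of 97 promoters held TGATGNAA on either strand (1.03%, against 2.27% of 4544 tested promoters), and GAANNTTC stood in 6 (6.19%, against 6.05%), namely CTSB, HSPA8, SYCN, RSL1D1, ATF4 and ILF2. GGGCGG, the core of a GC box, was in 70.1% of members' promoters and 58.5% of tested ones, CCAAT in 45.4% and 37.3%, TATAAA in 9.28% and 9.20%, the cAMP response element TGACGTCA in 6.19% and 3.24%, the broader TGACGTNA, which includes it, in 8.25% and 5.08%, TGACNNNGC of the antioxidant response element in 13.4% and 13.2%, and the E-box CACGTG in 7.22% and 9.60%, each on either strand. Promoter GC content had a median of 61.7% in members and 61.0% in tested genes. In tested genes with the same names removed that median was 62.7%, above the members. Their promoters held GGGCGG in 63.8%, CCAAT in 37.0%, TATAAA in 7.37% and TGACGTCA in 3.56%. A match to a motif describes letters and not a bound site.

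**Figure D3:**
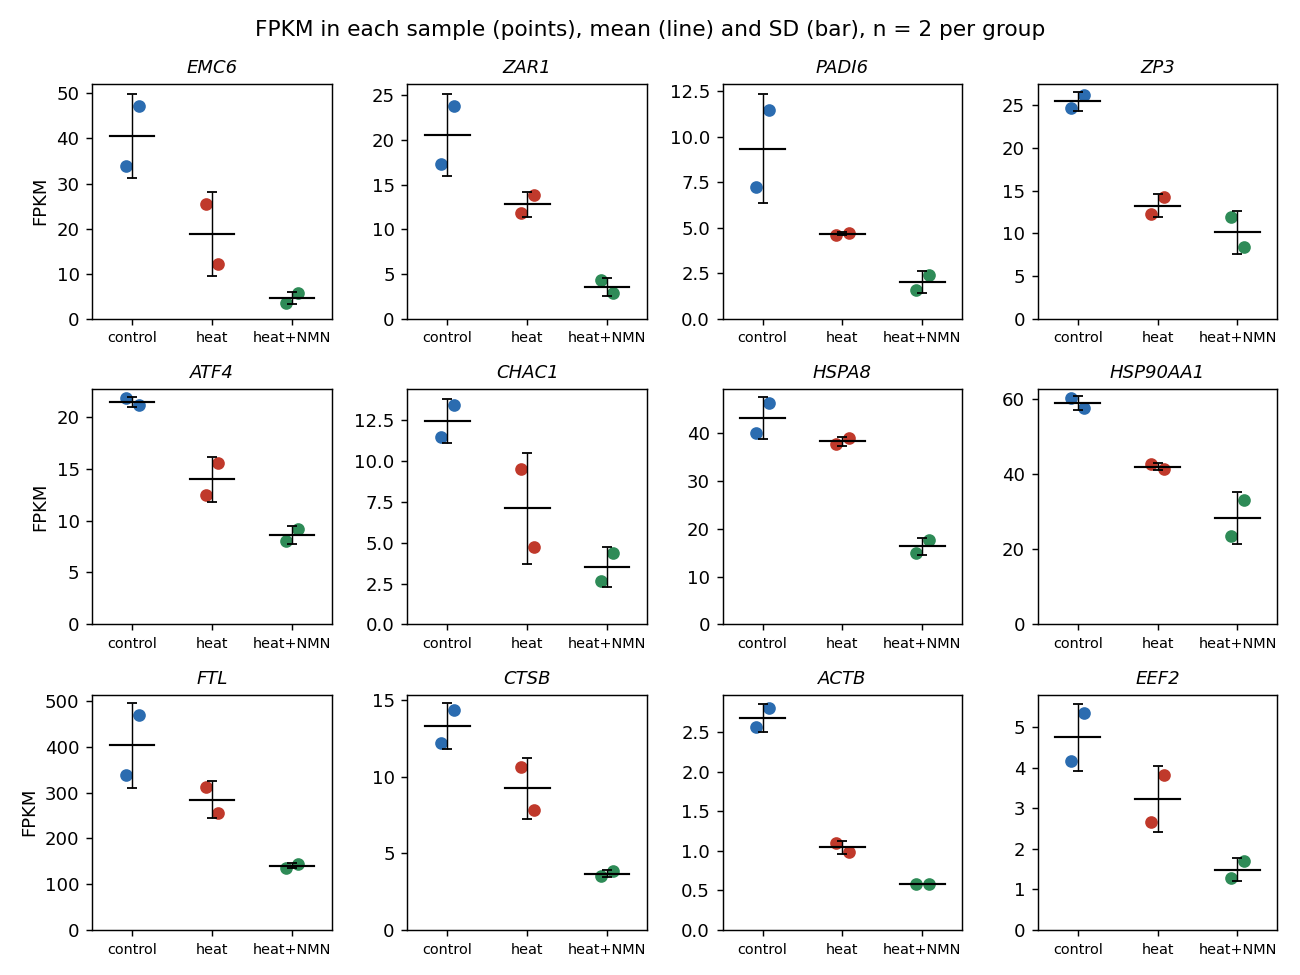
FPKM of 12 members in each sample (points), with the group mean (line) and SD (bar), n = 2 per group, each panel on its own axis from 0. Control points lie highest and NMN points lowest in all 12 panels, with a small heat step in HSPA8 and a large one in ZP3 and ACTB.

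Redox, glutathione and iron genes made up 8 members. FTL, the ferritin light chain that stores iron, was one of the most abundant members, at 338 and 469 FPKM in control, 313 and 257 under heat stress and 136 and 144 FPKM with NMN. PRDX2, a cytosolic peroxiredoxin, was at 9.81 and 15.9, then 7.88 and 9.31, then 3.25 and 4.65 FPKM, and its control replicates were the widest apart of its pairs. GGT6, of the gamma-glutamyltransferase family, was at 22.1 and 26.2, then 15.1 and 13.7, then 6.02 and 7.10 FPKM, with each pair close. CBR3 and SPR are short-chain carbonyl reductases, TKT the transketolase of the pentose phosphate pathway, and OSER1 a gene induced by oxidative stress; their NMN means lay between 2.73-fold and 5.15-fold below control. PRDX2 overlaps RNASEH2A in the annotation, and FTL has processed copies. Of 20 tested antioxidant genes 3 were members (GPX3, PRDX2 and FTL), and of the other 17 the ferritin heavy chain FTH1 (-0.70 ± 0.18, adjusted p = 0.048) and GLRX5 (-0.74 ± 0.18, adjusted p = 0.042) were called lower. GCLC, the catalytic subunit for glutathione synthesis, rose by 0.42 ± 0.11 (adjusted p = 0.048). The median of the 17 was 0.082, with 7 below 0.

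Proteolysis and autophagy were represented by 9 members. CTSB, the lysosomal protease cathepsin B, was at 12.2 and 14.3 FPKM in control, 10.6 and 7.83 under heat stress and 3.49 and 3.82 FPKM with NMN. GABARAP, an ATG8 protein of autophagosome membranes, was at 6.49 and 7.16, then 5.54 and 4.37, then 2.22 and 1.08 FPKM, with about 25.1% of its difference in the heat step. OTUB1, a deubiquitinase, was at 5.05 and 9.67, then 4.002 and 2.52, then 1.64 and 1.85 FPKM, and its control samples differed from each other by more than its heat stress and NMN means did. SEM1, a small subunit of the 26S proteasome, was the most abundant of the 97 and lay closest to the limit on size, with 480 and 778 FPKM in control, 366 and 416 under heat stress and 313 and 315 FPKM with NMN. Its log2 ratio of means was 1.001, next to NLRP7 at 1.01 inside the limit, while FAM110A at 0.999 and ALDOC, a glycolytic aldolase, at 0.991 fell just outside. At the limit on level, NPM2 (1.02 FPKM) and TBC1D10B (1.05) were just inside, and B3GNT9 (0.957) and C2H19orf71 (0.952) just outside. In the lysosome list, 10 genes were tested, the 9 beside CTSB had a median of -0.15, and TFE3, a transcription factor for lysosomal genes, GAA and M6PR were called lower beside CTSB, with adjusted p = 0.043, 0.041 and 0.049. In the autophagy list of 17, PINK1 was called lower (-0.91 ± 0.18, adjusted p = 0.029) beside GABARAP, the median of the other 16 was -0.067 and none was called higher.

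Cytoskeleton and cortex genes numbered 9. ACTB, cytoplasmic beta-actin, was low in these oocytes, at 2.56 and 2.81 FPKM in control, 1.101 and 0.983 under heat stress and 0.575 and 0.582 FPKM with NMN, with 69.6% of its difference in the heat step. DYNLL1, a dynein light chain, was at 218 and 281, then 168 and 139, then 104 and 102 FPKM. TUBB2B, a beta-tubulin, was at 7.47 and 12.2, then 5.97 and 5.17, then 2.98 and 3.22 FPKM. Actin and tubulin genes share long near-identical stretches, and TUBB2B overlaps another annotated gene, so these values are uncertain. SFN, the 14-3-3 sigma protein, was at 15.6 and 22.3, then 9.90 and 12.3, then 5.04 and 2.60 FPKM, a log2 difference of -2.08 ± 0.30 between NMN and control. Of 22 tested microtubule and spindle genes, 2 were members, and TUBB4B (-2.13 ± 0.45, adjusted p = 0.032), TUBB (-0.91 ± 0.14, adjusted p = 0.022) and TUBA1B (-0.67 ± 0.16, adjusted p = 0.041) were also called lower and none higher. TUBB4B was no member because its heat-stressed replicate 1 (13.6 FPKM) was above its control replicate 1 (13.4 FPKM). Of 26 tested actin genes ACTB was the only member, RHOC was called lower (-1.32 ± 0.16, adjusted p = 0.021), and ACTR2, RDX, SPIRE1 and CNN3 were called higher. Among all tested genes 12.4% were called higher.

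Translation and ribosome assembly accounted for 8 members. EEF2, the elongation factor that moves the ribosome, was at 4.17 and 5.35 FPKM in control, 2.66 and 3.82 under heat stress and 1.29 and 1.69 FPKM with NMN. EEF1B2, an exchange factor for eEF1A, was at 2.92 and 1.84, then 1.09 and 1.63, then 0.641 and 0.611 FPKM, and is 1 of the members whose control replicate 1 was the higher. NOP10 and SNU13 (small nucleolar ribonucleoproteins), NAT10 (an RNA acetyltransferase), PPAN and RSL1D1 (nucleolar ribosome biogenesis factors) and LRRC47 made up the rest, with log2 differences of -1.33 to -0.99. Of 13 tested cytosolic translation factors 2 were members, and EEF1A1 (-0.94 ± 0.11, adjusted p = 0.021) was among the others called lower, with none called higher.

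RNA polymerase, RNA-binding and chromatin genes made up 10 members and mitochondrial proteins 5. MEPCE, which caps and stabilises the 7SK RNA, was at 12.1 and 14.04 FPKM in control, 9.37 and 7.92 under heat stress and 3.20 and 3.59 FPKM with NMN. The others of the first group were POLR1D (a subunit of RNA polymerases I and III), BRF2 (an initiation factor of RNA polymerase III), LSM10, POLE4, FAAP24, ILF2, DHX58, ZC3H10 and SCAND1. ATP5D, the delta subunit of the ATP synthase, was at 1.75 and 3.56, then 1.31 and 0.942, then 0.412 and 0.369 FPKM, and TUFM, the mitochondrial elongation factor Tu, at 2.44 and 3.42, then 1.15 and 1.08, then 0.422 and 0.545 FPKM. DDX28, an RNA helicase of the mitochondrial ribosome, had widely spread heat-stressed samples of 2.89 and 6.44 FPKM and overlaps DUS2. Among 13 tested nuclear-encoded respiratory chain genes 11 of the 12 that were no members lay below 0, with a median of -0.32, and COX6A1, COX7C, COX17 and ATP5G2 were called lower beside ATP5D and none higher, with log2 differences of -0.99 to -0.62. The list held no gene of respiratory complex I, whose NDUF names were also barred from the choice.

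Membrane traffic, receptor and channel genes made up 13 members, of which TMEM119, a single-pass membrane protein, had the largest FPKM ratio of the 97 (9.23-fold) at levels of 3.19 and 4.26 FPKM in control, 1.15 and 1.19 under heat stress and 0.334 and 0.473 FPKM with NMN. Kinase and secreted signalling genes numbered 3. CDK5 and its activator CDK5R2 (p39) were both members although they lie on different chromosomes. CDK5R2 was at 18.99 and 19.5 FPKM in control, 14.4 and 15.6 under heat stress and 6.26 and 7.73 FPKM with NMN, and CDK5 at 2.11 and 2.28, then 1.06 and 1.61, then 0.597 and 0.243 FPKM. FSTL3, which binds activin, was the other. The last 10 members are little described, and PPDPF among them was at 10.3 and 11.8, then 4.63 and 4.95, then 1.02 and 1.62 FPKM (8.33-fold from control to NMN). C2CD4D, another of them, was at 5.14 and 6.02, then 2.57 and 4.51, then 0.431 and 1.98 FPKM, and overlaps another annotated gene.

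**Figure D4:**
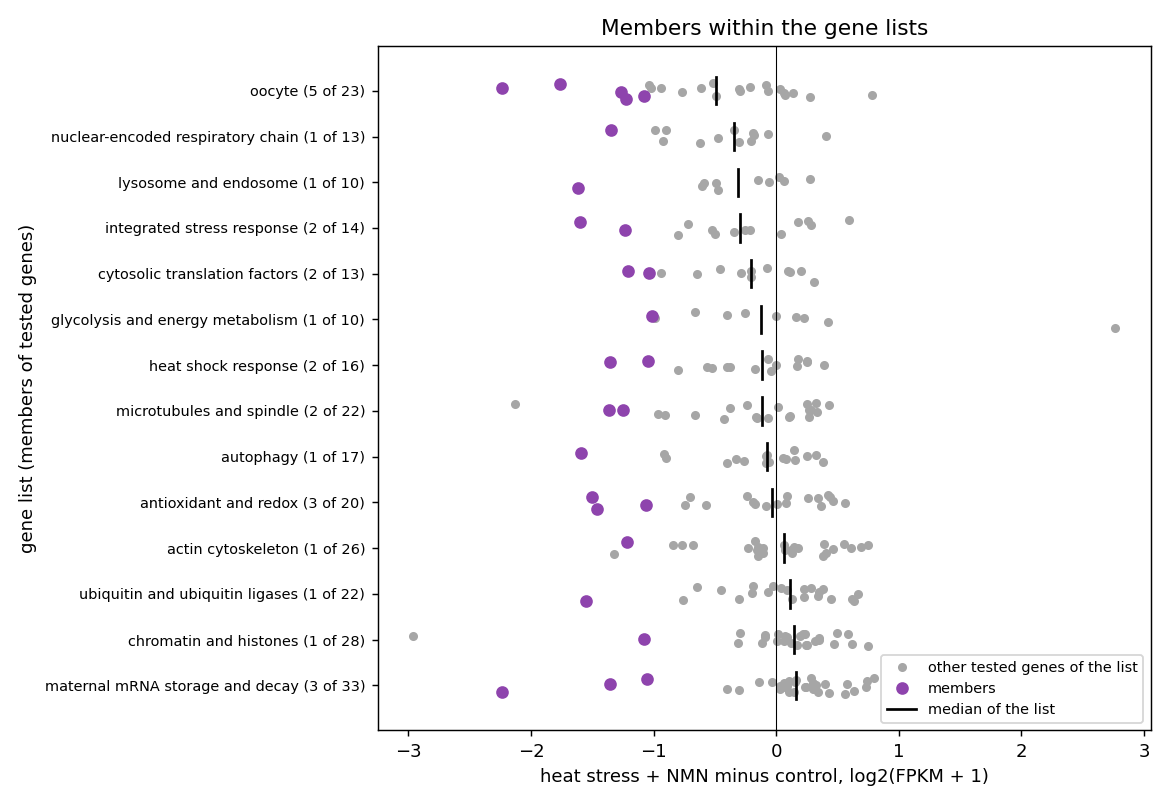
Log2(FPKM + 1) difference between NMN-supplemented and control oocytes for the tested genes of the 14 lists that hold a member, each point a gene, with members in purple and the list median as a black bar. Members lie toward the left of every list by construction and pull its median down, as in the oocyte list, at -0.50 with its 5 members and -0.25 without them.

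Of the 97 members 24 stood in any of 27 gene lists, and 73 in none. Lists without a member were those for the cell cycle and meiosis, splicing, ER folding, the DNA damage response, NAD metabolism, apoptosis, lipid metabolism, mitochondrial import, TGF-beta signalling and immediate early genes, besides the marker lists of cumulus, blood and stromal cells. Aurora and polo-like kinases are not in the cell cycle and meiosis list, and the rule bars their names. Between NMN and control, AURKA differed by -1.65 log2 (-0.94 with heat, then -0.71 with NMN) and AURKC by -0.043. The glycolysis list held TKT and the chromatin list NPM2, and in the list for ubiquitin ligases OTUB1 was the only member.

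The members' transcripts were shorter and richer in GC than those of the tested genes. These features were not part of the choice and are given without a test. In the RefSeq annotation of Sscrofa11.1 all 97 members and 4547 of 4713 tested genes were matched. The median transcript of a member was 1843 bases long, against 2705 in tested genes and 3741 in the 29 matched of the 31 stepwise rising genes, and its 3′ UTR 414 bases, against 939 and 2010. Transcript GC content had a median of 58.0% in members, 47.8% in tested and 40.4% in rising genes. When tested genes were put into quintiles by GC content, 60 members were in the highest quintile (6.59% of its genes), then 25, 10, 2 and 0 in the quintiles below it. By length, 32, 32, 21, 11 and 1 members lay in the quintiles from short to long. Tested genes with the same names removed had medians of 2910 bases and 48.3% GC.

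This gradient ran through the tested genes at large. Their median log2 difference between NMN and control was 0.35 in the lowest GC quintile and 0.25, 0.096, -0.058 and -0.17 in the next ones, most of it already present between heat stress and control (0.25 to -0.20). Over length quintiles it went from -0.20 in the shortest to 0.34 in the longest. Between the control samples themselves the medians by GC quintile were between -0.030 and 0.016, and replicate 2 minus replicate 1 was 0.11 in the shortest and -0.13 in the longest quintile, so that a length gradient also ran between samples of 1 group. When trends with GC content and length were removed from each sample, an alternative chosen after seeing the data, 58 genes met the rule, of which 52 were members, and all 97 members kept the order of their group means. No overlap at either step remained in 71 of them. The members were chosen for this order in the same samples, so its persistence is a description only. EMC6, HSPA8, HSP90AA1, CHAC1, CTSB, PADI6, TCL1B, SFN, PPDPF and ACTB were among the 52, whereas ZAR1, ATF4, FTL, ZP3 and GPX3 were not. The members' median difference was then -1.07 between NMN and control and -0.43 between heat stress and control. Whether the gradients arose in the oocytes or in the libraries was not tested.

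A cytoplasmic polyadenylation element was found in a smaller share of members than of tested genes, again without a test. TTTTAT or TTTTAAT stood in the last 100 bases of 9 of 95 members with an annotated 3′ UTR (9.47%), against 996 of 3985 tested genes (24.99%) and 24% of the rising genes. In the highest GC quintile it was in 4 of 59 members against 23.0% of all its genes, and in the next quintile in 4 of 25 against 24.4%. The 100 bases were searched whatever the length of the 3′ UTR. They thus held coding sequence where the 3′ UTR was shorter, as in ZP3 (14 bases) and EEF1B2 (45 bases). Tested genes were searched in the same way, but their 3′ UTRs were longer at the median. The common polyadenylation signals AATAAA or ATTAAA stood in the last 50 bases of 71.6% of members and 77.0% of tested genes. Among all tested genes the NMN minus control median was 0.23 with the element and 0.085 without it. In the lowest GC quintile the medians were 0.38 (209 genes) and 0.37 (577 genes), and in the highest 0.082 (189 genes) with the element and -0.30 (634 genes) without. The gap between genes with and without the element thus widened with GC content. Tail lengths were not measured.

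The 9 members with the element are shown, as windows of 30 bases around its match nearest the 5′ side, with the element in capitals. They are OTUB1 (chr2:8088534-8088563, minus strand), UBALD2 (chr12:5203206-5203235, minus), YBX2 (chr12:52635427-52635456, minus), SOX15 (chr12:52882852-52882881, minus), BRF2 (chr15:48572954-48572983, plus), GPANK1 (chr7:23777104-23777133, minus), NOP10 (chr7:80162236-80162265, plus), ZC3H10 (chr5:21513940-21513969, plus) and NAT10 (chr2:26786179-26786208, minus), all in the last exon. The element began between 14 and 72 bases before the transcript end, and NOP10 held a second match.

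OTUB1: cgaccttccatgTTTTATtaaaggggacgc
UBALD2: ccagggtgaaaTTTTAATttaaaacttaaa
YBX2: cctctgaagccaTTTTATgaaccgtcatgt
SOX15: ggctgaacacagTTTTATacgattaaacca
BRF2: gctttgcaaatTTTTAATatattaaaacaa
GPANK1: ttctccctctttggtgTTTTATtcactttt
NOP10: tcaagcagggatTTTTATttttcatgctcc
ZC3H10: ggatgtctgctcTTTTATggtttgcacact
NAT10: agagagtctatTTTTAATaaatgacatctt

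**Figure D5:**
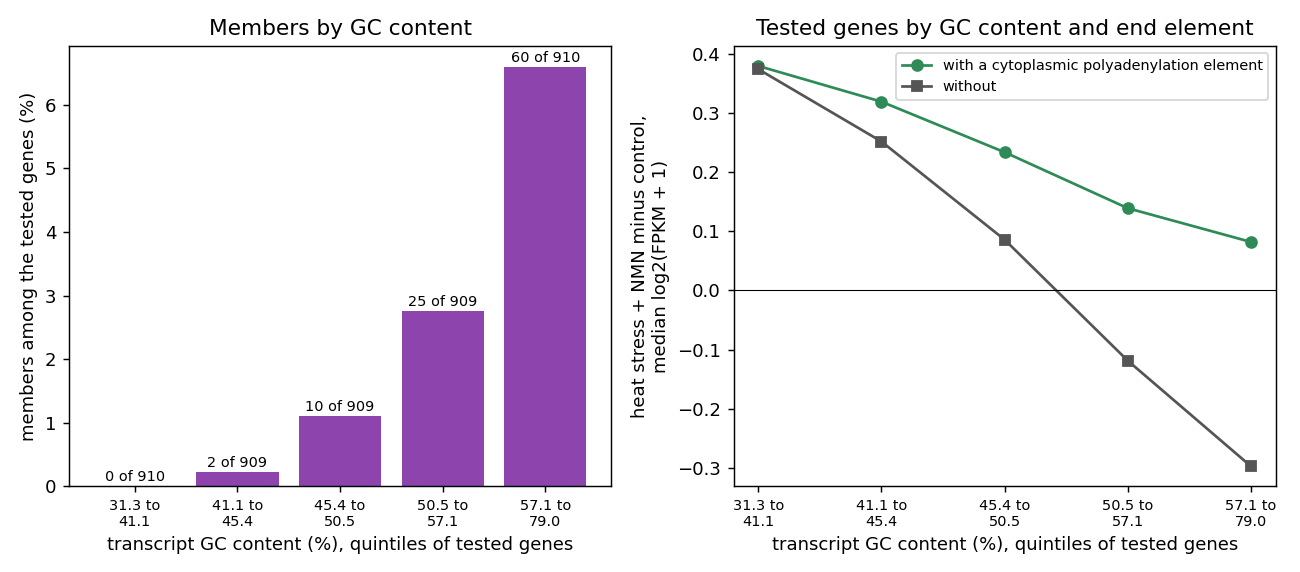
Left, members as a percentage of the tested genes in each quintile of transcript GC content, with counts above the bars. Right, median log2(FPKM + 1) difference between NMN-supplemented and control oocytes per quintile for genes with and without the element in the last 100 bases. Members rise from 0 of 910 to 60 of 910 genes, and the medians with and without the element part from 0.38 and 0.37 to 0.082 and -0.30.

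Members lay on most chromosomes. Chromosomes 3, 12, 2 and 6 held 14, 12, 12 and 11, or 4.32%, 4.71%, 3.02% and 2.44% of the tested genes there, and chromosome 1 held 3 of 395. Members within 100 kb of each other formed 6 groups, of which EMC6, P2RX5 and GSG2 on chromosome 12 (49759153 to 49823515) was the largest and held 3 genes. The others were pairs, namely GABARAP with YBX2, TMUB1 with CDK5, PRDX2 with C2H19orf43, PRSS8 with VKORC1 and ZC3H10 with ESYT1. In the deposited list of loci, 24 members (24.7%) shared their listed locus with another gene, against 33.4% of tested genes, and 25 overlapped another annotated gene. The kit named in the methods does not mark strand, so fragments from overlapping genes cannot be told apart.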

How the data were processed

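Per the labels mRNA was isolated from total RNA, and how it was captured is not given in the sources used here. Per the methods the authors trimmed reads with cutadapt and aligned them to susScr11 (Sscrofa11.1) with tophat2, and the submitters' processing notes name Cufflinks 2.2.1, Cuffnorm and Cuffdiff. The authors deposited FPKM for 29861 genes in 6 samples. Their log2 fold changes, p-values and q-values, deposited in the same table, were not used. Read counts were not analysed here. The most common ratio of low FPKM between samples, shared by 4.37 to 5.19% of low genes, put relative depth at 0.733 to 1.16 of control replicate 1, and 15707 to 17163 genes were above 0 per sample. With only FPKM, depth is otherwise unknown and no counting interval is given.

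The members and gene lists were chosen with earlier results of these data known. All analyses used log2(FPKM + 1), which understates changes of low genes. One limma 3.58.1 fit (R 4.3.3) of 3 groups to 6 samples, with a variance trend and Benjamini-Hochberg adjustment, served the 4713 genes with a mean of at least 1 FPKM, and was tested on simulated data. Genes named were the 20 members with the largest ratio of means, members in any list, those nearest the limits and defining cell type markers. Other members and called list genes were named after their values were seen. Transcripts and promoters came from the RefSeq annotation of Sscrofa11.1, with 1 transcript per gene. A curated transcript was taken before a predicted one, and then the longest. Python 3.11.15, pandas 2.3.3 and statsmodels 0.14.6 (lowess fraction 0.4) were used. Alternatives were other pseudocounts, minimum levels and scalings, GC and length trends removed, a replicate block and leaving out each sample. Values of 1 member and 1 other gene are not reported here.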

Additional observations from a re-analysis of the deposited data

How the results depend on the processing

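The rule found 97 genes as described, 161 with a pseudocount of 0.1 FPKM, 161 by the order of the group means alone, 47 with a minimum mean of 5 FPKM, 58 after removal of GC and length trends, and 63 (46 of the members) when samples were scaled to the same sum outside mitochondrially encoded genes, a sum of which LOC100513953 made up 37.0% in heat stress replicate 1 and 0% elsewhere. Without 1 sample at a time it found 91 to 137 genes. The members' median log2 difference between heat stress and control was -0.93 with that scaling and -0.43 without the trends (-0.74 to -0.51 leaving out samples), between NMN and heat stress -0.91 with a pseudocount of 0.1 and -0.40 with that scaling (-0.66 to -0.61), and between NMN and control -1.64 with a pseudocount of 0.1 and -1.07 without the trends (-1.35 to -1.20). For 38 named members, 190 NMN minus control values under 5 other pseudocounts, scalings or trend removals were all negative, and 27 moved by more than the replicate spread. The rule fixes that sign, and neither leaving out samples nor another pseudocount can turn it. The scalings and trend removal started from values chosen to differ by at least 1 log2, so their signs are a description only. Genes called lower by limma between NMN and control numbered 432, but 71 and 171 with a minimum mean of 0.1 and 5 FPKM, 253 with the replicate number as a block, and 0 to 402 without 1 sample. With 1 sample left in a group, assumed to vary like the others, they were 0 without control replicate 2 or NMN replicate 1, 1 without NMN replicate 2 and 174 without control replicate 1. At an unadjusted p under 0.05, 476 were lower between heat stress and control (1047 and 181 with the other minima, 322 to 437 without 1 sample) and 304 between NMN and heat stress (657 and 107, 238 to 363). Same-numbered samples did not deviate together (correlations of -0.032, -0.0139 and 0.00805 across genes), so the block was not used elsewhere. The share of members with the element was 7.37, 12.6 and 14.7% in windows of 50, 200 and 300 bases, against 13.8, 36.7 and 44.5% of tested genes. These windows are nested, so a share cannot fall with window length. The cause of the shifts between settings was not tested. FPKM without counts limit what can be said of low members.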
